A study of Homo sapiens with 12 samples.

Results

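The eIF4 genes encode the proteins that recognize the cap of an mRNA, together with the repressors that hold the cap-binding protein back. Their 10 members here were EIF4E, EIF4G1, EIF4G3, EIF4G2, EIF4A1, EIF4A2, EIF4B, EIF4H, EIF4EBP1 and EIF4EBP2. They were taken by gene name from 56632 Ensembl genes, and all 10 passed the filter on low counts that left 16275 genes for testing. The samples were MCF10A cells, an immortalized breast epithelial line that does not form tumours, either wild type (WT) or carrying a CRISPR-Cas9 knockout of CBFB (CBFB_KO). CBFB is the partner subunit of the RUNX transcription factors, and the study asks whether it also acts in translation. The knockout cells were derived from single-cell colonies, and the clone used for sequencing is not given in the sources used here. Cells of both genotypes were grown with horse serum, insulin, EGF, hydrocortisone and cholera toxin, and were treated with cycloheximide at 37 degrees, so that ribosomes stayed on their mRNAs. Lysates were spun through sucrose gradients, and RNA from the ribosome-free (free), single-ribosome (mono) and polyribosome (poly) fractions was sequenced. A poly-A mRNA kit was taken here as the library method, whereas the paper's RNAseq methods name rRNA removal from total RNA. This difference was not resolved. There were 6 groups of 2 libraries, 12 in all, and nothing in the labels states whether the 2 were separate cultures.

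In cap-dependent initiation, eIF4E binds the cap and is joined to eIF4G, a scaffold that also carries the RNA helicase eIF4A. The complex of these proteins, eIF4F, opens the leader of the mRNA and brings in the small ribosomal subunit. eIF4B and eIF4H stimulate the helicase, and the 4E-BP repressors occupy eIF4E until the kinase mTOR phosphorylates them. eIF4G2, also called DAP5, lacks the eIF4E-binding part of the scaffold. Some mRNAs of the translation machinery start with a C and a run of pyrimidines, the TOP motif, through which mTOR and LARP1 control their loading on ribosomes.

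The annotated starts of the members differ in this feature, and the 4 that begin with C at their only listed start are shown beside EIF4E, which does not. Each sequence covers 10 bases before the RefSeq start and 15 from it (GRCh38.p14, strand of the gene), with the pyrimidine run at the start in capitals. The windows lie at chr12:53006446-53006470 (EIF4B, plus strand), chr3:186783567-186783591 (EIF4A2, plus), chr17:7572815-7572839 (EIF4A1, plus), chr7:74174346-74174370 (EIF4H, plus) and chr4:98929119-98929143 (EIF4E, minus).
EIF4B: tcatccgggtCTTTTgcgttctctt
EIF4A2: gcgccgctgtCTTTTCagtcgggcg
EIF4A1: ggcactccgcCCTagtttctaagga
EIF4H: ctcgctcaccCTggttcctctcgga
EIF4E: tggagcggttgtgcgatcagatcga
A C followed by at least 4 more pyrimidines was found at the start of EIF4B and EIF4A2, 2 of the 9 members in the RefSeq promoter table, and at 1429 of all 35116 listed starts (4.07%). The match describes the annotated first base and not the start used in these cells.

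Facts of the whole series bear on every value from the free fraction. The expected counts, RSEM's estimated reads per gene, summed to between 41050325 and 63886726 per library. RNA encoded by the mitochondrial genome made up 71.6% and 87.2% of CBFB_KO free, 11.1% and 20.8% of WT free and at most 8.08% of any other library. Outside that genome CBFB_KO free held 13568143 and 5247878 counts, and each of the other libraries at least 43279862. The mean chi-square per gene between the libraries of a group, near 1 for sampling noise alone, was 2.2 in the CBFB_KO poly pair and 118.5 to 597.5 in the other 5 groups, so the CBFB_KO poly pair shows little of the spread seen between other replicates. All 9 basal epithelial markers were above 1 TPM in at least 1 library. The luminal markers summed to 67.1 to 89.0 TPM in the CBFB_KO free libraries, from GATA3 and FOXA1, and to at most 13.2 elsewhere, with ESR1 below 1 TPM and PGR at 0. Fibroblast markers summed to at most 3.21 TPM, with COL1A2 and COL3A1 at 0, blood markers to at most 0.17 and endothelial markers to at most 0.03. The part of the luminal markers in the results was not tested. CBFB itself had 376 and 982 expected counts in WT free and 267 and 139 in CBFB_KO free, and its change passed the threshold in no fraction by edgeR (log2 change 0.49 in free, -0.71 in mono and -0.72 in poly, adjusted p = 0.373, 1 and 1). A CRISPR edit can stop the protein without removing the mRNA, so this level does not check the genotype.

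Levels between genes were compared per length as TPM, rescaled to the usual TPM total over the genes outside the mitochondrial genome. In WT poly libraries the helicase EIF4A1 stood far above the rest, at 1352 and 1411 TPM. The repressor EIF4EBP1 followed with 308 and 329 TPM, and the helicase cofactor EIF4H with 136 and 149 TPM. The scaffold EIF4G1, at 83.9 and 199 TPM, overlapped EIF4H. Below them came EIF4B at 41.1 and 73.6 TPM, EIF4G2 at 27.0 and 38.9, and EIF4A2, which overlapped EIF4G2, at 24.5 and 34.8. The cap-binding protein EIF4E was low, at 8.39 and 14.8 TPM, as was the second repressor EIF4EBP2, at 6.94 and 6.99. EIF4G3 had the lowest level of the members, 1.18 and 3.18 TPM. The helicases, EIF4EBP1, EIF4H and EIF4B thus stood above the cap-binding protein, and neighbours in the order overlapped only where named.

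**Figure D1:**
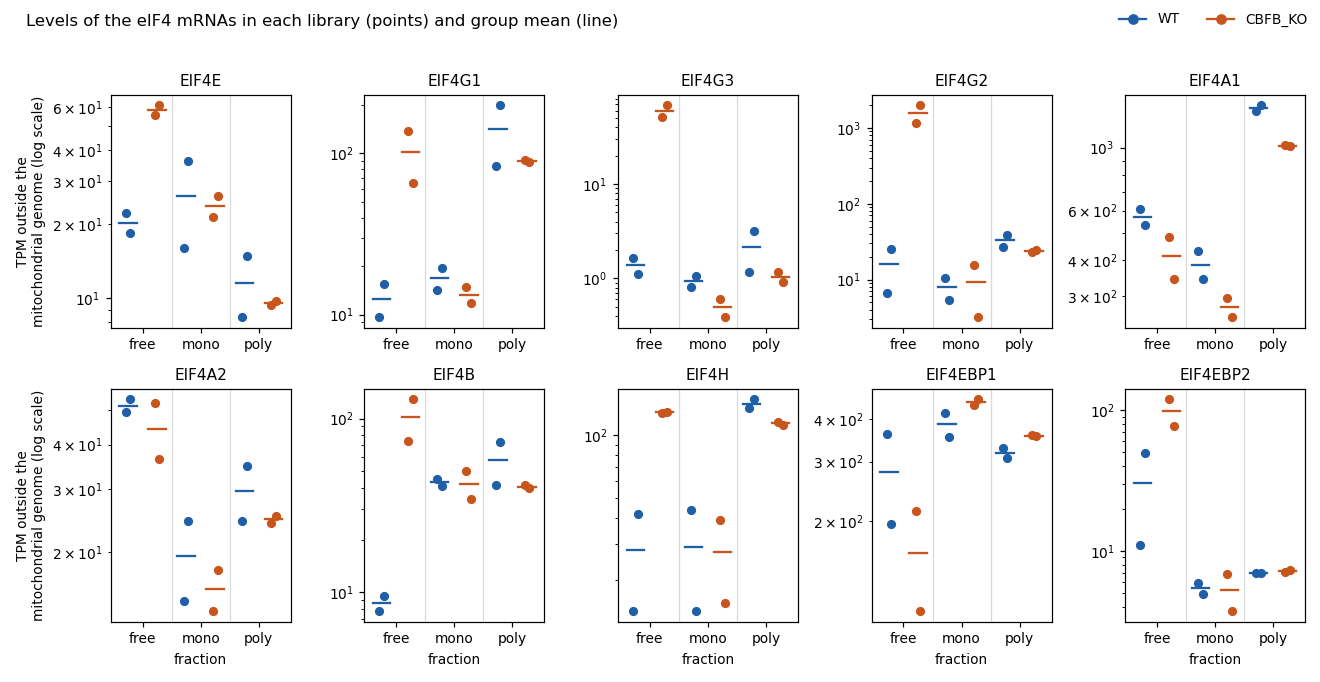
Level of each eIF4 mRNA in each library (points) with the group mean (line), as TPM rescaled over genes outside the mitochondrial genome on a log axis whose range differs between panels, by fraction and genotype (blue WT, orange CBFB_KO). All members but EIF4A1, EIF4A2 and EIF4EBP1 stand higher in the CBFB_KO free libraries than in the WT free libraries on this scale. Of those that stand higher, EIF4E and EIF4EBP2 did not pass the test in free. No change between genotypes in mono or poly passed the test.

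The distribution over the gradient in WT cells was compared first, as the base against which the genotypes are set. Changes are log2 differences between group means of counts scaled with TMM, a factor per library that puts the bulk of genes near 0. They were tested with edgeR's quasi-likelihood test over all genes, and a Benjamini-Hochberg adjusted p under 0.05 was the threshold. Between WT poly and WT free libraries, EIF4G1, EIF4B and EIF4H were higher on polyribosomes and EIF4E and EIF4EBP2 were lower. These are 3 of 10 members higher, where 14.0% of all genes tested were, and 2 lower, where 7.99% were. EIF4G1 (ENSG00000114867) had 9.64 and 15.4 TPM in WT free and 83.9 and 199 in WT poly, a log2 change of 4.03 in TMM-scaled counts (SE 0.57, adjusted p = 0.00187, edgeR). The libraries of the 2 fractions do not overlap, and the mRNA of this scaffold was among the 819 genes with the highest change of the 16275 tested.

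EIF4B (ENSG00000063046) had 7.74 and 9.43 TPM in WT free, 45.1 and 40.8 in WT mono, and 41.1 and 73.6 in WT poly. Its poly to free change was 2.07 (SE 0.37, adjusted p = 0.00419, edgeR), and its change between poly and mono was -0.64 (SE 0.36, adjusted p = 0.234, edgeR). The mono and poly libraries of this helicase cofactor overlap in TPM but not in TMM-scaled CPM, at 180 and 172 in mono and 92.8 and 134 in poly. With an offset for transcript length EIF4B was lower in poly than in mono past the threshold (-1.31, adjusted p = 0.0257, edgeR), and without WT replicate 1 or 2 its poly to free change missed it (2.31 and 1.87, adjusted p = 0.055 and 0.0669). EIF4H, the related cofactor, had 14.2 and 41.7 TPM in WT free, 43.4 and 14.2 in WT mono, and 136 and 149 in WT poly. Its poly to free change was 1.95 (SE 0.55, adjusted p = 0.0275, edgeR), and its WT free and WT mono libraries were each spread about 3-fold. The EIF4H call lay close to the threshold, and missed it without WT replicate 1 (1.47, adjusted p = 0.174, edgeR), with the compared libraries alone (0.0523), with the CBFB_KO poly libraries summed (0.0503) and with the gradient as a block (1.93, 0.0504).

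EIF4E showed the opposite order. Its WT libraries held 22.2 and 18.4 TPM in free, 15.9 and 36.0 in mono, and 8.39 and 14.8 in poly, with log2 changes of -1.90 against free (SE 0.51, adjusted p = 0.0224, edgeR) and -2.60 against mono (SE 0.52, adjusted p = 0.00695). Without WT replicate 1 the change of EIF4E against free was -1.28 (adjusted p = 0.216, edgeR), and without WT replicate 2 that against mono was -1.89 (adjusted p = 0.11). EIF4EBP2 had 11.0 and 50.0 TPM in WT free, 5.93 and 4.94 in mono, and 6.99 and 6.94 in poly. Its poly to free change was -2.50 (SE 0.54, adjusted p = 0.00886, edgeR), but without WT replicate 2, the higher of the free libraries, it was -1.13 (adjusted p = 0.186). EIF4EBP1, the abundant repressor, had 362 and 196 TPM in WT free, 418 and 355 in mono and 329 and 308 in poly, with a change between poly and mono of -1.61 (SE 0.45, adjusted p = 0.0283, edgeR). That call was held in 9 of 15 alternatives, and with the length offset the change was -0.58 (adjusted p = 0.248). Short transcripts in general were lower in WT poly than in WT mono, and EIF4EBP1 lay at the 41.7 percentile of its length class, whose median was -1.36.

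In all, against mono 1 member was higher in WT poly, EIF4G1 (1.81, SE 0.52, adjusted p = 0.0295, edgeR), where 11.0% of all genes were, and 2 were lower, where 9.68% were. The EIF4G1 call was held in 9 of 15 alternatives, and with the length offset the change was 1.41 (adjusted p = 0.0544, edgeR). The helicases EIF4A1 and EIF4A2, EIF4G2 and EIF4G3 passed the test in neither comparison. Their poly to free changes were 0.85 (SE 0.36), -1.03 (SE 0.43), 0.78 (SE 0.62) and 1.31 (SE 0.57). Scaled by library size alone, the split was 3 higher and 0 lower against free and 2 higher and 0 lower against mono, and the median of all genes moved from 0.08 to 0.61 and from -0.05 to 0.81. Without WT replicate 1 or without WT replicate 2, 3 members passed against free, and 1 and 0 passed against mono.

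**Figure D2:**
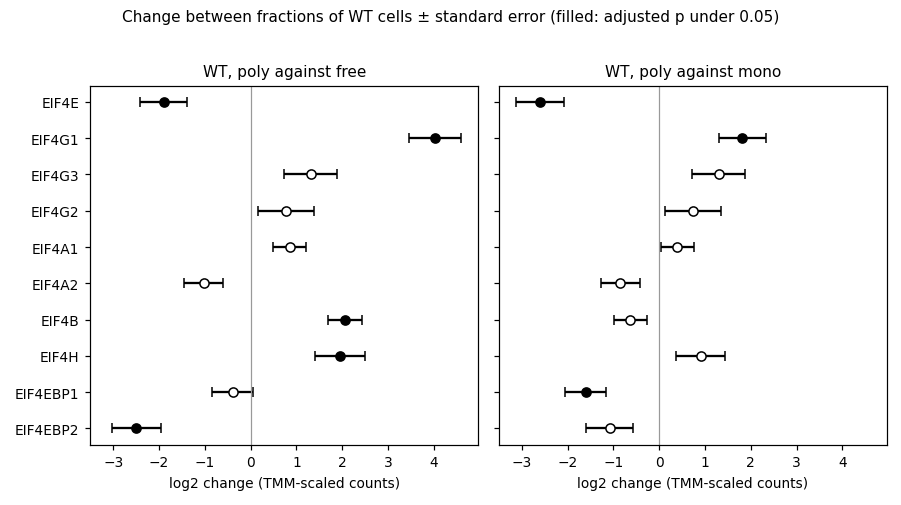
Log2 change of each eIF4 mRNA between fractions of WT cells, in TMM-scaled counts (points, bars show the standard error, filled where the edgeR adjusted p was under 0.05). EIF4G1 is the only filled point to the right in both panels, at 4.03 against free and 1.81 against mono, and EIF4E the only one to the left in both. The EIF4G1 call against mono was held in 9 of 15 alternatives.

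The comparison of genotypes asks whether the loading of these mRNAs changes without CBFB. In the free fraction the CBFB_KO libraries held more of the mRNAs for the scaffolds EIF4G1, EIF4G2 and EIF4G3 and for the cofactors EIF4B and EIF4H (the latter turned direction by library size alone), and less of those for the helicase EIF4A1 and the repressor EIF4EBP1. That is 5 of 10 members higher, where 24.2% of all genes were, and 2 lower, where 18.1% were. The median change was 1.29 over the members and 0.04 over all genes tested. Each library is scaled within itself, so a change of one mRNA and a change of the rest of its fraction cannot be told apart.

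The largest changes were those of EIF4G3 and EIF4G2. EIF4G3 (ENSG00000075151) had 1.65 and 1.12 TPM in WT free and 51.3 and 68.1 in CBFB_KO free, from 187 and 99 expected counts in WT and 2564 and 1696 in CBFB_KO. Its log2 change was 6.15 (SE 0.70, adjusted p = 0.000152, edgeR). EIF4G2 (ENSG00000110321) had 6.57 and 25.2 TPM in WT free and 1164 and 1982 in CBFB_KO free, a change of 5.73 (SE 0.75, adjusted p = 0.000339, edgeR). In the CBFB_KO free libraries EIF4G2 stood first among the members, above EIF4A1, whereas its rank in WT free was 7 of 10. Both genes were higher past the threshold under all 14 alternative settings run. Deposited TPM values with mitochondrial genes included, where the CBFB_KO free libraries leave less room for all other genes, were still 5.68 and 18.7 in WT free and 156 and 119 in CBFB_KO free for EIF4G2.

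EIF4G1 had 9.64 and 15.4 TPM in WT free and 138 and 65.8 in CBFB_KO free, with a change of 3.58 (SE 0.56, adjusted p = 0.000891, edgeR), and it too passed under all 14. EIF4B had 7.74 and 9.43 TPM in WT free and 73.8 and 129 in CBFB_KO free. Its log2 change was 2.45 (SE 0.38, adjusted p = 0.000877, edgeR), so that the low WT free value described above was not seen in the CBFB_KO free libraries. As deposited, with mitochondrial genes included, EIF4B had 6.70 and 7.01 TPM in WT free and 9.87 and 7.76 in CBFB_KO free. Scaled by library size alone its change was 0.68 (adjusted p = 0.259, edgeR), beside a median of all genes of -1.57, and with the 4 free libraries alone it was 2.50 (adjusted p = 0.0538).

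EIF4H had 14.2 and 41.7 TPM in WT free and 129 and 130 in CBFB_KO free, a change of 1.46 (SE 0.54, adjusted p = 0.0474, edgeR). This call was held in 5 of 14 alternatives, and by library size alone the change was -0.26 (adjusted p = 0.774). EIF4A1 fell by 1.36 (SE 0.37, adjusted p = 0.0149, edgeR), with 606 and 533 TPM in WT free and 484 and 344 in CBFB_KO free. EIF4EBP1 fell by 1.57 (SE 0.45, adjusted p = 0.0192, edgeR), with 362 and 196 TPM in WT free and 214 and 108 in CBFB_KO free, where the libraries overlap, and with the length offset its change was -0.70 (adjusted p = 0.1). Without WT replicate 1, without CBFB_KO replicate 2 or with the 4 free libraries alone, both of these decreases missed the threshold, and 4, 4 and 3 members passed in place of 7.

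The other 3 members did not pass the test in free. EIF4A2 had 49.3 and 53.6 TPM in WT free and 52.3 and 36.4 in CBFB_KO free (log2 change -0.36, SE 0.43). EIF4E had 22.2 and 18.4 TPM in WT free and 55.4 and 60.8 in CBFB_KO free, but its change in TMM-scaled counts was -0.12 (SE 0.49, adjusted p = 0.869, edgeR). For EIF4E the scales part in direction. Its isoform-weighted length, by which TPM divides, was shorter in CBFB_KO free, at 1166 and 992 bases against 1913 and 1789 in WT free. The scales also part for EIF4EBP2, whose length cannot vary. Its mean TPM in CBFB_KO free was 3.22 times that in WT free, and its tested change was 2.18-fold. Other members show gaps in size too. By mean TPM in free, EIF4A1 fell 1.38-fold and EIF4EBP1 1.73-fold, against 2.56-fold and 2.97-fold in the test. EIF4B, EIF4H and EIF4G2 rose more by TPM than in the test (EIF4B 11.8-fold against 5.47-fold). EIF4G1 and EIF4G3 rose less by TPM (EIF4G1 8.16-fold against 11.9-fold). The part of length in these gaps was not tested. EIF4EBP2 had 11.0 and 50.0 TPM in WT free and 119 and 77.3 in CBFB_KO free (log2 change 1.12, SE 0.51, adjusted p = 0.097, edgeR). With an offset for transcript length its change was -1.66 (adjusted p = 0.0308), so that its direction rests on that choice. By library size alone, 3 members were higher and 4 lower in place of 5 and 2.

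On the mono and poly fractions no member passed between genotypes. In mono, 0 of 10 members passed by edgeR, where 0.147% of all genes did, and in poly 0 of 10, where 0.190% did. By DESeq2 0 members passed in either, and 0 had an unadjusted p under 0.05 in edgeR. In mono the changes ran from -0.42 (EIF4G3, SE 0.58) to 0.32 (EIF4EBP1, SE 0.44). In poly they ran from -0.89 (EIF4G3, SE 0.57) to 0.27 (EIF4E, SE 0.49). EIF4B had 45.1 and 40.8 TPM in WT mono against 49.7 and 34.3 in CBFB_KO mono, and 41.1 and 73.6 in WT poly against 41.2 and 39.9 in CBFB_KO poly. Its changes were 0.07 in mono and -0.16 in poly, each with an SE of 0.36. The WT range held one CBFB_KO poly library and lay just above the other. EIF4G2, so far apart in free, had 10.5 and 5.36 TPM in WT mono and 15.7 and 3.20 in CBFB_KO mono, and 27.0 and 38.9 in WT poly and 22.8 and 24.6 in CBFB_KO poly. The standard errors ran from 0.36 to 0.61 on the log2 scale, so a missed threshold does not show that the genotypes were alike.

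**Figure D3:**
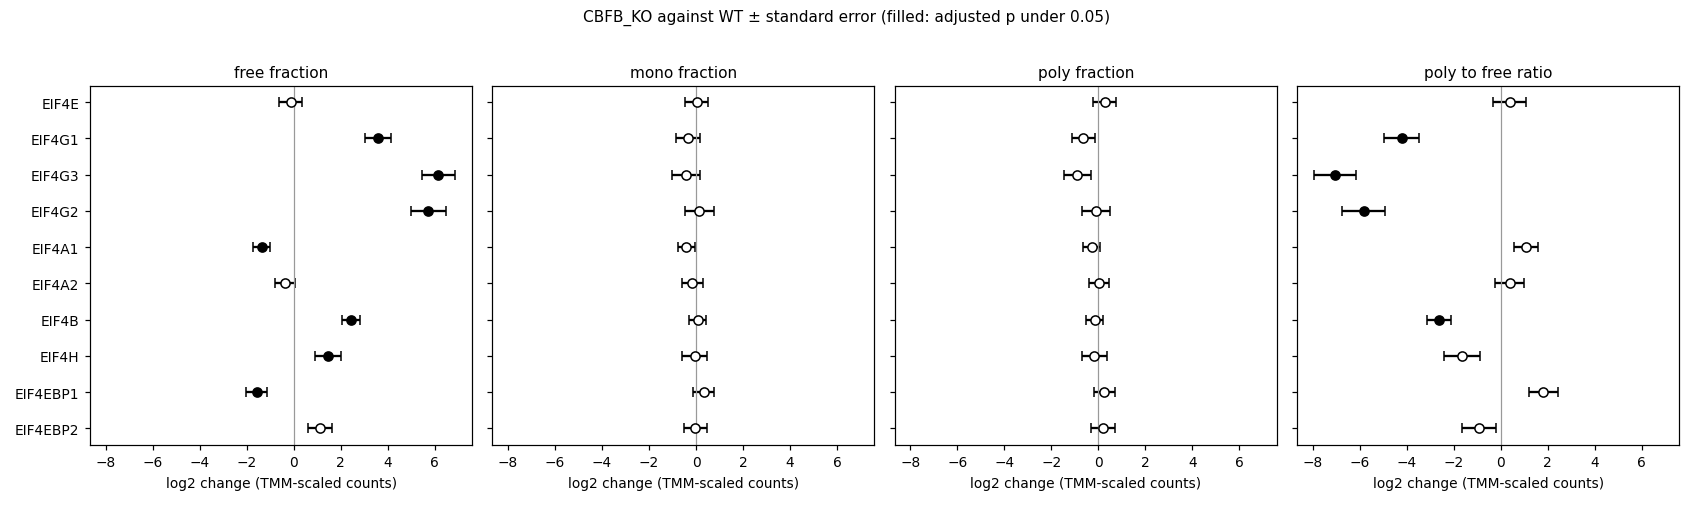
Log2 change of each eIF4 mRNA in CBFB_KO against WT in the free, mono and poly fractions, and of its poly to free ratio, in TMM-scaled counts (points, bars show the standard error, filled where the edgeR adjusted p was under 0.05). Filled points occur only in the free panel, from -1.57 to 6.15, and in the ratio panel, from -7.05 to -2.61, and the panels share their free libraries.

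The poly to free ratio, which the study reads as the loading of an mRNA on ribosomes, was then compared between genotypes as an interaction. The ratio was lower in CBFB_KO cells for EIF4B and for all 3 scaffold genes. These are 4 of 10 members, where 14.3% of all genes were lower, and 0 were higher, where 4.10% were. In edgeR 5 members had an unadjusted p under 0.05, and DESeq2 called 5 lower and 1 higher. This ratio uses the same free libraries as the comparison above, so it is no second measurement of the difference seen there.

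EIF4G3 had the largest decrease, -7.05 (SE 0.88, adjusted p = 0.000601, edgeR), and EIF4G2 followed with -5.83 (SE 0.93, adjusted p = 0.00225). Group means of TPM are a different scale from the TMM-scaled counts tested, and on that scale EIF4G2 had the larger fall. For EIF4G2 the poly level was 2.08 times the free level in WT and 0.0151 times in CBFB_KO, and for EIF4G3 1.58 times and 0.0174 times. Both decreases passed in all 15 alternatives. The ratio of EIF4G1 was lower by 18.5-fold (log2 change -4.21, SE 0.74, adjusted p = 0.00366, edgeR). By TPM, the other scale, it went from 11.3 in WT to 0.877 in CBFB_KO, a smaller fall.

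By TPM the poly level of EIF4B was 6.68 times the free level in WT and 0.400 times in CBFB_KO. The log2 change of the ratio in TMM-scaled counts, the scale tested, was smaller, at -2.61 or 6.1-fold (SE 0.52, adjusted p = 0.00665, edgeR). Of 15 alternatives it passed in 9, with adjusted p from 5.04e-06 to 0.361. It missed by library size alone (-0.85, adjusted p = 0.361, edgeR, where the median of all genes was 1.54), with a length offset (-1.23, adjusted p = 0.0918), without WT replicate 2 (-2.24, adjusted p = 0.0676), with CBFB_KO replicate 2 left out (-2.36, adjusted p = 0.122) and on summing the near-identical CBFB_KO poly libraries (-2.57, adjusted p = 0.0737). EIF4G1 missed by library size alone (-2.62, adjusted p = 0.0641, edgeR) and without CBFB_KO replicate 2 (-4.48, adjusted p = 0.0528), which left 2 members past the threshold.

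The ratio of the other 6 members did not pass. EIF4EBP1 had a change of 1.82 (SE 0.63, adjusted p = 0.0638, edgeR) and EIF4A1 of 1.08 (SE 0.51, adjusted p = 0.145), both positive. EIF4H had -1.64 (SE 0.75, adjusted p = 0.133, edgeR) and EIF4EBP2 -0.93 (SE 0.72, adjusted p = 0.357). EIF4E and EIF4A2 lay near 0, at 0.39 each with standard errors of 0.70 and 0.61. By library size alone the split of calls was 2 higher and 2 lower, in place of 0 and 4, as EIF4A1 (2.66, adjusted p = 0.027, edgeR) and EIF4EBP1 (3.40, adjusted p = 0.021) then passed.

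The poly to mono ratio avoids the free libraries. By edgeR 0 of 10 members and 0 of all genes tested (0%) differed between genotypes, with 164 genes and 0 members at an unadjusted p under 0.05 and 0 genes by DESeq2. The members' changes lay between -0.47 (EIF4G3, SE 0.81) and 0.23 (EIF4E, SE 0.69). For EIF4B the change was -0.23 (SE 0.51), and for EIF4G2, with the second largest decrease against free in TMM-scaled counts, -0.25 (SE 0.87). The differences between the genotypes past the threshold were thus in the free fraction and in the ratio made with it.

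Transcript length moved with the fractions, and its values stand beside these results. Over all genes tested, the median change between CBFB_KO free and WT free was -1.08 in the shortest of 4 equal classes of isoform-weighted length, -0.61 and 0.24 in the next ones and 1.95 in the longest. In mono and poly the 4 medians lay between -0.14 and 0.12. For the poly to free ratio they were 1.24, 0.58, -0.35 and -2.06. Within WT cells the medians also rose with length, from -1.36 through -0.25 and 0.28 to 0.88 for poly against mono and from -0.40 through -0.20 and 0.05 to 0.95 for poly against free. EIF4B, with a mean length of 3129 bases, is in the longest class, and its free change was 0.50 above the median of that class, at its 60.1 percentile. Its ratio change lay at the 40.3 percentile of the class. The scaffolds stood farther out. EIF4G3 lay at the 96.2 percentile of its class in free, EIF4G2 at the 92.6 and EIF4G1 at the 89.9. The classes rest on each gene's length averaged over the 12 libraries, which puts EIF4G1 and EIF4G3 in class 3 of 4. Their mean lengths in CBFB_KO free alone, 3056 and 4230 bases, would fall in the longest class, which starts at 2877. EIF4A1 and EIF4EBP1, which were lower in free, have mean lengths of 1626 and 928 bases and lay at the 35.3 and 37.1 percentiles of their classes. The part of length in the results was not tested beyond the offset, under which EIF4G1, EIF4G2 and EIF4G3 still passed in the ratio and EIF4B did not.

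**Figure D4:**
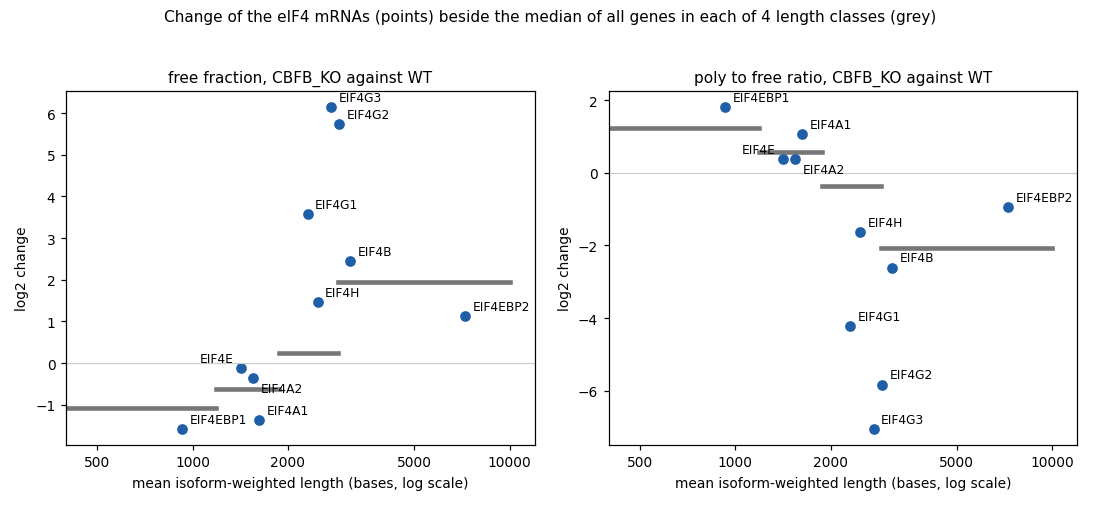
Log2 change of each eIF4 mRNA (points) against its mean isoform-weighted length on a log axis, for CBFB_KO against WT in the free fraction and for the poly to free ratio, with the median of all genes in each of 4 length classes (grey lines, shortened at the ends of the axis). EIF4B lies near the grey line of its class, while EIF4G1, EIF4G2 and EIF4G3 lie far from theirs.

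The isoform-weighted length, the mean length of a gene's transcripts weighted by RSEM's estimate of each, is a readout of its own, given here without a test. For EIF4G1, with 39 listed transcripts, it was 1100 and 1641 bases in WT free and 2908 and 3204 in CBFB_KO free. In mono it was 2078 to 2343 over both genotypes, and in poly 2538 and 2667 in WT and 2363 and 2411 in CBFB_KO. The WT free reads of this scaffold were thus assigned to shorter transcripts than those of any other group. EIF4G3, with 17 transcripts, went the same way, from 1782 and 1624 bases in WT free to 4364 and 4095 in CBFB_KO free. So did EIF4A2, whose level did not pass the test in free, from 1171 and 1449 bases to 1752 and 1862. In mono EIF4G3 stayed between 1318 and 1849 bases, and in poly it reached 2961 to 4106. EIF4B had 3594 and 3831 bases in WT free, 3496 and 2271 in CBFB_KO free and 2399 to 2692 in mono. EIF4E was the member with a shorter length in CBFB_KO free than in every other library, from 635 and 299 expected counts there. EIF4EBP2 has 1 listed transcript, of 7257 bases, so its length could not vary.

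**Figure D5:**
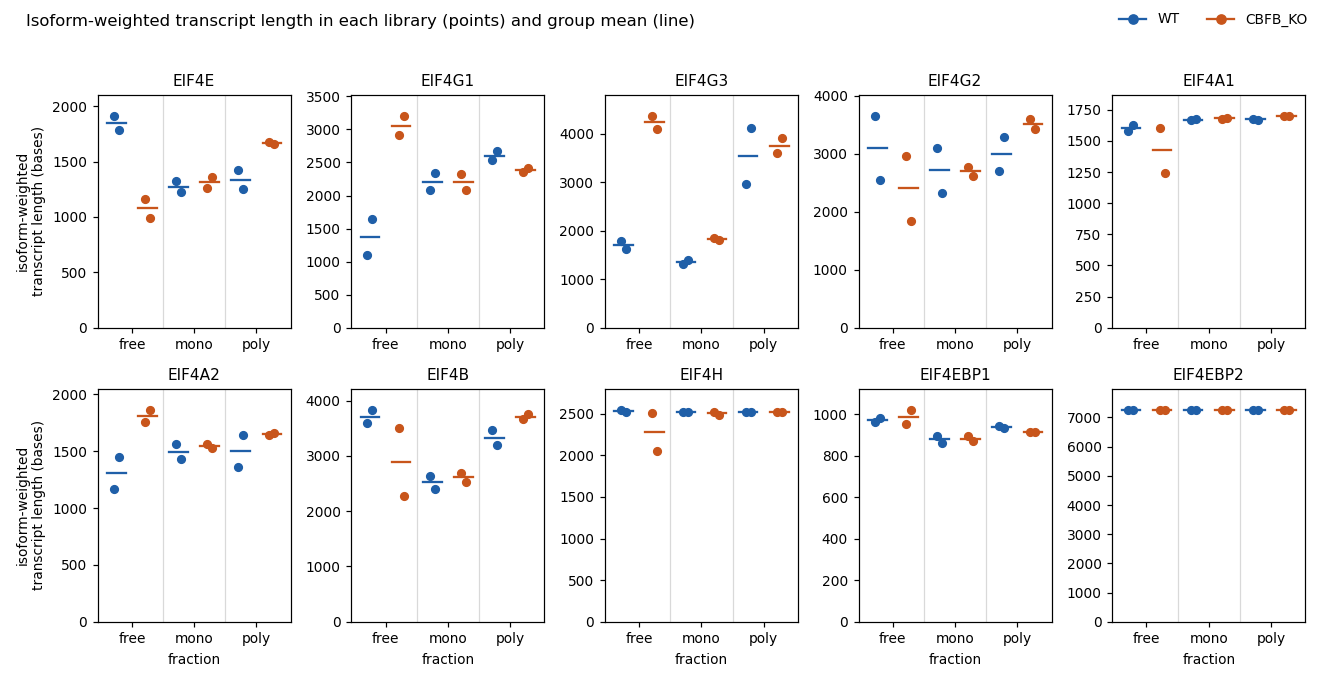
Isoform-weighted transcript length of each eIF4 gene in each library (points) with the group mean (line), in bases from 0, by fraction and genotype (blue WT, orange CBFB_KO). EIF4G1, EIF4G3 and EIF4A2 are shorter in the WT free libraries than in the CBFB_KO free libraries, and EIF4E is longer there.

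Sequence shared with other annotated genes limits some members. In the GENCODE 29 transcripts, 41.0% of the 50-base stretches of EIF4A1 and 19.4% of those of EIF4B also occur in another gene, so their values depend on how reads were divided. For EIF4A1 the largest shares were with AC016876.2 (33.8%) and SENP3-EIF4A1 (24.9%). Rows named as EIF4E pseudogenes held 8.64% to 15.6% of the counts of EIF4E and its pseudogenes together. Those of EIF4B held 0.581% to 3.61%, and those of EIF4A1 0.149% to 0.201%. For EIF4G1, EIF4G2 and EIF4G3 the shared stretches were 0.191%, 0.739% and 0%.

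Of 32 partners and upstream regulators of eIF4F, 31 were tested and CYFIP1 was not analysed here. In WT cells 9 were higher and 4 lower in poly than in free, where 14.0% and 7.99% of all genes were, and 6 and 5 against mono, where 11.0% and 9.68% were. In the free fraction 11 were higher and 4 lower in CBFB_KO cells, where 24.2% and 18.1% of all genes were, with a median change of 0.21 against 0.04 over all genes. The 6 with the largest changes were RPS6KA3, a kinase that phosphorylates eIF4B (5.69, SE 0.66), the helicase DHX29 (5.48, SE 1.25), the decapping activator DDX6 (4.82, SE 0.94), EIF3A, the large subunit of the factor that eIF4G contacts (4.51, SE 0.65), the S6 kinase gene RPS6KB1 (4.28, SE 1.22) and MTOR itself (4.01, SE 0.83). DHX29 and RPS6KB1 had low counts, a mean log2 CPM of 0.84 and 1.22, and their changes ran from 3.55 to 11.0 and from 2.44 to 11.8 over the 14 alternatives, of which 12 and 10 passed, so their place in this order is uncertain. Also higher were PDCD4, the inhibitor of eIF4A, LARP1, DDX3X, FMR1 and EIF4ENIF1, the eIF4E transporter. Of the 14 alternatives, PDCD4 passed in 12, LARP1 in 11, DDX3X in 9 and EIF4ENIF1 in 7. FMR1, with a mean log2 CPM of 0.52, was close to the threshold (adjusted p = 0.0438, edgeR) and passed in 5. The 4 lower were RHEB, which activates mTOR, the repressor EIF4EBP3, the second cap-binding protein EIF4E2 and TSC1. These passed in 11, 9, 7 and 9 of the 14 alternatives. Without CBFB_KO replicate 2, 5 were higher and 0 lower, with the 4 free libraries alone 6 and 0, and by library size alone 5 and 14.

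In mono and poly 0 of the 31 passed by edgeR and 0 by DESeq2, with 1 and 0 at an unadjusted p under 0.05. For the poly to free ratio 8 were lower in CBFB_KO cells and 1 was higher, where 14.3% and 4.10% of all genes were. The largest were DHX29 (-6.37, SE 1.58), RPS6KA3 (-5.62, SE 0.82), EIF3A (-5.49, SE 0.85), MTOR (-5.13, SE 1.09), DDX6 (-4.87, SE 1.20) and LARP1 (-3.55, SE 0.74), followed by PDCD4 and DDX3X. RHEB was the 1 with a higher ratio (2.11, SE 0.67, adjusted p = 0.0484, edgeR), a call held in 8 of 15 alternatives. DHX29 passed in 10 of the 15, with changes from -10.2 to -4.29, so its first place is uncertain. The count of 9 became 14 by DESeq2, 2 with the CBFB_KO poly libraries summed and 0 without CBFB_KO replicate 2, while by library size alone 7 were higher and 3 lower.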

How the data were processed

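RNA of 12 libraries was measured. Per the submitters' processing notes, Trimmomatic, STAR, RSEM and hg19 were used, and versions are not given in the sources used here. The authors deposited RSEM's expected counts, without normalization, and TPM and FPKM scaled within each library with mitochondrial genes included. A gain of mitochondrial RNA therefore lowers the TPM and FPKM of all other genes. Here TPM was rescaled to the same total over genes outside the mitochondrial genome. Rounded expected counts entered the quasi-likelihood test of edgeR 4.0.16 (with limma 3.58.1 under R 4.3.3), with TMM factors, filterByExpr and 6 group means over 12 libraries. Calls had a Benjamini-Hochberg adjusted p under 0.05 over 16275 genes. The standard error is the log2 change over the square root of F. DESeq2 1.42.0 and the other alternatives are given in the closing section. The fit was also run on simulated data with few changed genes, no length trend and no excess of mitochondrial RNA in CBFB_KO free. That run therefore does not check the calls in the free fraction.

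A count of 3, the floor, is 4.7e-06 to 7.31e-06 percent of a library, for counting error only. Groups and replicate numbers came from the labels. With 2 libraries a group, p-values measure the spread between these libraries, which may be technical. The members and lists were chosen with earlier results of these data known. All 10 members were named, with CBFB and the partners past the threshold in a comparison of genotypes (at most 6 with values each). Start sequences are from RefSeq (GRCh38.p14), and no gene positions on hg19 were used. Levels and figures were made in Python 3.11.15 (pandas 2.3.3, matplotlib 3.10.9 and numpy 2.4.6).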

Additional observations from a re-analysis of the deposited data

Results flagged for a closer look

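The poly to free ratio of 4 members differed between the genotypes by edgeR's interaction test. The log2 change of the ratio in CBFB_KO against WT was -2.61 for EIF4B, -4.211 for EIF4G1, -5.83 for EIF4G2 and -7.046 for EIF4G3. Beside each stands a change in the free fraction of 2.45, 3.58, 5.73 and 6.15 and in the poly fraction of -0.16, -0.63, -0.10 and -0.89. The mitochondrial share of the CBFB_KO free libraries (71.6% and 87.2%) moved with the same comparison, and its part in the result was not tested.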

How the results depend on the processing

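The numbers of members past the threshold were 5 (WT poly against free), 3 (WT poly against mono), 7 (genotypes in free), 0 (mono), 0 (poly), 4 (poly to free ratio) and 0 (poly to mono ratio), and the 3 counts of 0 were 0 under every alternative run. WT poly against free gave 3 by library size alone and 3 with the compared libraries alone, WT poly against mono gave 1 with the CBFB_KO poly libraries summed, and free gave 3 with the compared libraries alone. Leaving out 1 replicate of 1 genotype at a time gave 3 to 5, 0 to 2, 4 to 8 and 2 to 4 for the 4 counts above 0. In free, 7 members had a higher group mean in CBFB_KO than in WT by rescaled TPM, 4 by FPKM as deposited and 4 by TPM as deposited. EIF4H turned to -0.256 in free by library size alone, and EIF4EBP2 turned to -1.66 in free with the length offset and -1.771 with the replicate block and length offset together. Of 1020 values of single members under an alternative, 947 kept their side of the threshold (57 of these changed sign while past it in neither). With the same sign, 51 lost it and 19 gained it. The other 3 are the EIF4H and EIF4EBP2 values above, which changed sign while past it in 1 of the 2 settings. By library size alone 1281 genes were higher and 6461 lower in free, against 3943 and 2939, and 3003 and 646 for the ratio, against 668 and 2332. Without CBFB_KO replicate 2 the ratio had 2 higher and 360 lower. The cause was not tested.

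The labels number the libraries 1 and 2 in each group without saying what a number shares, and the deviations of same-numbered libraries of the genotypes correlated at 0.07 in free, 0.24 in mono and 0.03 in poly across genes, so they were not taken as pairs. With the replicate block 5, 3, 6, 0, 0, 4 and 0 members passed, in the order above, and EIF4H in free was the call lost (adjusted p = 0.0548, edgeR). With the gradient as a replicate block 4, 3, 4 and 0 passed for the comparisons between fractions and the ratios, and EIF4H in WT poly against free was the call lost (adjusted p = 0.0504, edgeR).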

Other observations

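Among members, the level across the 12 libraries (log2 of TMM-scaled CPM) was most alike for EIF4G2 and EIF4G3, with a Pearson correlation of 0.944, followed by EIF4A2 and EIF4E (0.829) and EIF4G1 and EIF4H (0.811). The most similar genes to EIF4B over the 12 libraries were BMS1P10 (0.964) and NAP1L5 (0.96). These values describe points that share fractions and scaling, and the 6 groups make them far from independent.

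Within CBFB_KO cells, given as values without a test, the poly to mono changes of the 3 members past the threshold in WT were as follows. EIF4G1 was at 1.51 (SE 0.51), EIF4EBP1 at -1.68 (SE 0.45) and EIF4E at -2.37 (SE 0.52), against 1.81, -1.61 and -2.60 in WT. The poly to free changes of EIF4G2 and EIF4G3 were -5.05 and -5.74 in CBFB_KO, against 0.78 and 1.31 in WT.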
